A study of Mus musculus with 15 samples.

Results

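Neurexins, neuroligins and MDGA proteins form a set of adhesion molecules at the synapse, and 7 of their genes were followed here: Nrxn2 and Nrxn3, Nlgn1, Nlgn2 and Nlgn3, and Mdga1 and Mdga2. They are 7 of the 53337 genes to which the 133849 transcripts of the series could be summed, and they hold 65 of those transcripts. The members were chosen by family, and the set was chosen by Mdga1, which was lower with AVP in the male libraries. The male values of the members are therefore given as a description and were not tested, while the female values were. The comparison of the sexes uses the male libraries too, so it was tested for the other members but is a description for Mdga1.

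The tissue was the dorsal forebrain, the precursor of the cortex, from C57BL/6J embryos at E18. Pregnant dams carried a subcutaneous osmotic minipump that released arginine vasopressin (AVP) or saline throughout gestation, so the embryos were exposed through the mother and carried no introduced allele. The mRNA libraries used were those of males (4 AVP and 4 saline) and of females (3 AVP and 4 saline). A further AVP female was sequenced, but the paper excluded it as an outlier because of its high variance. Within a group each library came from a separate litter, so the spread between libraries holds that between litters. There were fewer litters than libraries, so males and females shared litters, but the labels do not link them and the comparison of the sexes treats the libraries as independent.

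At a synapse, neurexins on the presynaptic membrane bind neuroligins on the postsynaptic membrane across the cleft, and the pair helps to align release sites with receptors. Neurexins are transcribed from alternative start sites into long alpha and short beta forms, and both families are spliced into variants that change which partner is bound. MDGA proteins are anchored to the outer membrane and bind neuroligins, which keeps neurexins from reaching them. Mdga1 is also known as a marker of superficial cortical neurons.

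The annotated coding transcripts of these genes differ by short segments that are each a whole number of codons. They are printed here because the transcript results below turn on which of them a transcript carries. Each is read 5′ to 3′ on the strand of its gene from the GENCODE M21 transcripts of build GRCm38, with the alternative segment in capitals and 15 bases of the neighbouring exons on each side in lower case. The 90-base exon of Nrxn3 lies at the site known as splice site 4, and the segments of the neuroligins lie at the sites known as A and, for the 27 bases of Nlgn1, B.
Nrxn3 90-base exon: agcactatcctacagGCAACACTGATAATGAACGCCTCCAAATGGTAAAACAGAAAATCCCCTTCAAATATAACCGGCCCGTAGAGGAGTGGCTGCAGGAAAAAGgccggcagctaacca
Nlgn1 60-base exon: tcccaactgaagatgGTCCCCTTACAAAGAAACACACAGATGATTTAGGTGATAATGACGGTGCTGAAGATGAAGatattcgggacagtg
Nlgn1 27-base extension: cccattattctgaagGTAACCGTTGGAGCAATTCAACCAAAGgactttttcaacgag
Nlgn2 51-base exon: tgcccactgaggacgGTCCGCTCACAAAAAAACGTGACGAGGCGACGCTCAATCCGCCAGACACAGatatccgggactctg
Nlgn3 60-base exon a: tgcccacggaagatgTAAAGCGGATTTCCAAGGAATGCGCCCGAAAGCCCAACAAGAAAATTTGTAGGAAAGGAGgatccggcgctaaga
Nlgn3 60-base exon b: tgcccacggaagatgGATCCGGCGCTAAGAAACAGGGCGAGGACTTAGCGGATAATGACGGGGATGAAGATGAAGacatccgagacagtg
Mdga1 24-base exon: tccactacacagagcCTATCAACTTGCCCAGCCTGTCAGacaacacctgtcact

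The segments lie in coding exons at chr12:90199147-90199236 (Nrxn3, plus strand), chr3:25920178-25920237 and chr3:25439865-25439891 (Nlgn1, minus), chr11:69830563-69830613 (Nlgn2, minus), chrX:101303072-101303131 and chrX:101307075-101307134 (Nlgn3, plus) and chr17:29839549-29839572 (Mdga1, minus). The Nlgn1 60-base exon matched exon b of Nlgn3 at 43 of 60 bases (71.7%), but exon a at 16 of 60 (26.7%). Thus 1 of the Nlgn3 exons was alike to that of its paralog and the other was not.

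Levels are in TPM, the relative abundance of a transcript scaled to its length and to the library total, summed over the transcripts of a gene, so genes can be ranked within a library. Sex-linked transcripts went against the label in 1 library, labelled saline male 12, which had 266 TPM of Xist and 0.489 TPM summed over 4 Y-linked genes, against 102 to 155 TPM in the other males. It was kept under its label, and values without it are given where they differ. Markers of cortical projection neurons summed to 1278 to 1730 TPM, so the labelled tissue was present in every library, but choroid plexus markers ranged from 7.17 to 2273 TPM and red blood cell markers from 2241 to 13657 TPM. The library AVP female 11 had the lowest pan-neuronal sum, 3946 TPM against 4716 to 5919 TPM in the others. In bulk tissue, fewer cells of a type and less RNA per cell cannot be told apart.

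The members ran in the same order in most libraries. Nrxn2 was the most abundant, at 129.9 ± 16.97 TPM (mean ± SD over 15 libraries), and was above Nlgn2 (95.3 ± 15.5 TPM) in 15 of 15 libraries. That order is over all transcripts of a gene. Coding transcripts held 67.6% ± 2.45 of the Nrxn2 TPM and 83.8% ± 4.57 of the Nlgn2 TPM. On coding transcripts alone, Nlgn2 was above Nrxn2 in some libraries, among them AVP female 11. Mdga1 followed at 34.9 ± 10.1 TPM, below Nlgn2 and above Nlgn1 in all 15. Nlgn1 (21.99 ± 2.61 TPM) and Nlgn3 (21.05 ± 2.80 TPM) did not separate: Nlgn1 was higher in 10 of 15 libraries. Nrxn3 (11.6 ± 2.92 TPM) and Mdga2 (9.64 ± 1.75 TPM) were lowest, with Nrxn3 higher in 14 of 15. Summed over all their transcripts, the neuroligins (138 ± 17.9 TPM) were close to Nrxn2 and Nrxn3 together (141 ± 18.8 TPM). Nlgn2, which is known from inhibitory synapses, gave the larger part of the neuroligin sum.

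**Figure D1:**
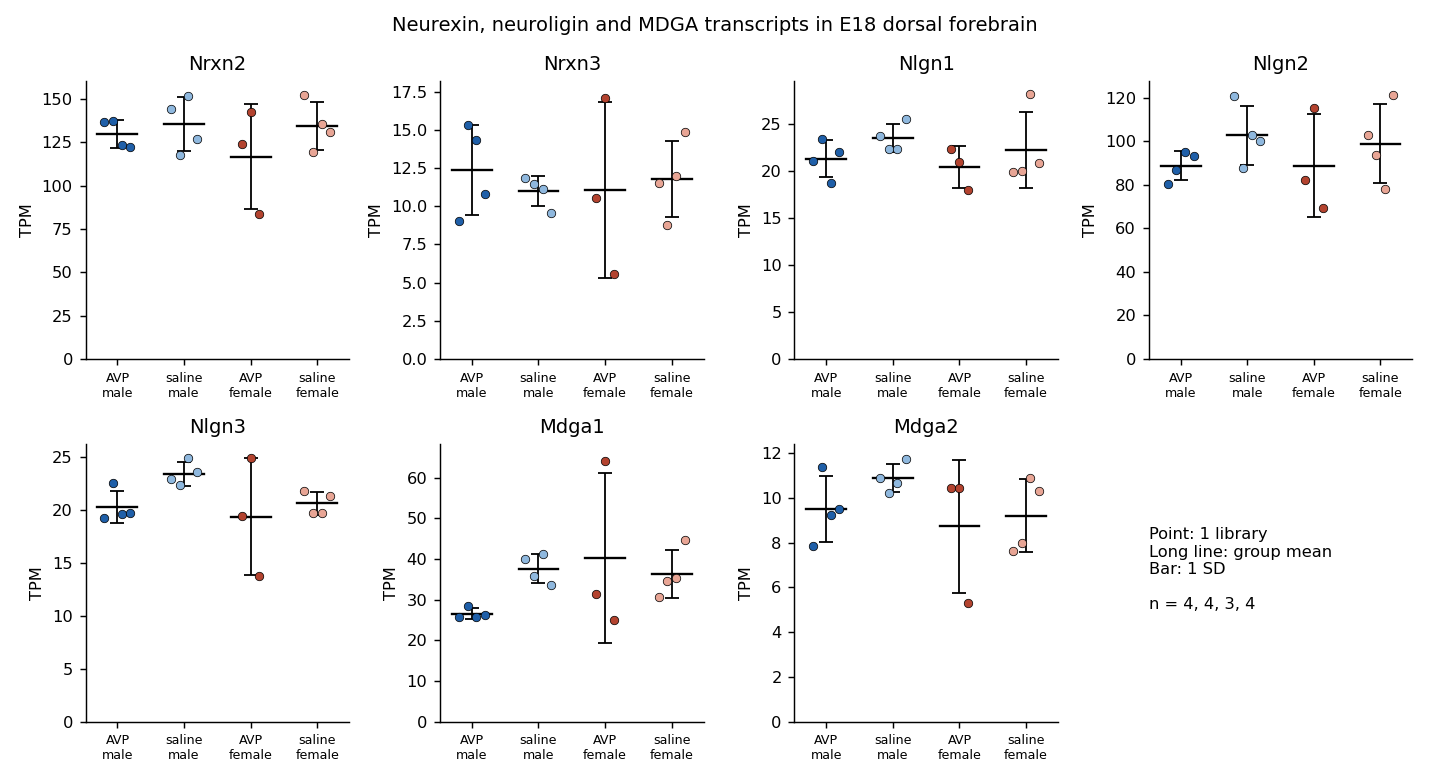
TPM of the 7 genes by library (points) in the 4 groups, with the group mean (long line) and SD (bar); each panel has its own axis from 0. The AVP male points of Mdga1 lie between 25.7 and 28.5 TPM, below the saline males, and AVP female 10 stands highest and AVP female 11 lowest in Mdga1, Nrxn2 and Nrxn3 among the AVP females.

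Of the neurexins, Nrxn2 stood at 136, 137, 123 and 122 TPM in AVP males 1, 2, 8 and 9 and at 144, 118, 152 and 127 TPM in saline males 4, 5, 12 and 13. In females it stood at 124, 143 and 83.6 TPM in AVP females 3, 10 and 11 and at 152, 120, 135 and 131 TPM in saline females 6, 7, 14 and 15. Both pairs of groups overlapped, and the lowest value was that of AVP female 11. Nrxn3 ranged from 9.05 to 15.3 TPM in AVP males, from 9.57 to 11.9 TPM in saline males, from 5.58 to 17.1 TPM in AVP females and from 8.75 to 14.9 TPM in saline females. Its AVP female values spanned those of all the other groups.

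The differences below are of mean log2(TPM + 0.5), AVP minus saline, ± SE. In males, Nrxn2 differed by -0.05 ± 0.09 and Nrxn3 by 0.14 ± 0.17. The sign for Nrxn2 was not stable: it was 0.0031 without the library labelled saline male 12 and 0.05 under median-of-ratios scaling. In females, Nrxn2 differed by -0.23 ± 0.18 and Nrxn3 by -0.19 ± 0.34, and neither passed limma's test (adjusted p = 0.999 for each). The 95% interval in females reached from -0.64 to 0.17 for Nrxn2 and from -0.97 to 0.58 for Nrxn3, so differences within those ranges were not excluded. Without AVP female 11 the female difference of Nrxn3 turned to 0.21 and that of Nrxn2 was -0.010.

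Nrxn2 transcripts were read mostly from the short form. The short, beta-type transcripts, taken as those with 6 or 7 exons, held 58.1% ± 3.63 of the TPM of coding transcripts with at least 6 exons over the 15 libraries, and those of Nrxn3 held 10.995% ± 5.38. In Nrxn2 the beta share was 56.8% ± 2.95 in AVP males and 56.7% ± 2.66 in saline males, and 59.2% ± 6.77 in AVP females and 59.98% ± 2.04 in saline females. In Nrxn3 it was 13.4% ± 6.28 and 7.35% ± 2.19 in AVP and saline males, and 12.8% ± 5.55 and 10.9% ± 6.45 in AVP and saline females. The 2 genes thus differed in which start carried their transcripts, and the treated and saline ranges overlapped in each.

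The 90-base exon at splice site 4 was carried by 98.2% ± 1.73 of the Nrxn3 coding TPM that spans it, and its counterpart in Nrxn2 by 76.5% ± 2.86. For Nrxn2 the group means were 76.6% ± 3.24 and 74.6% ± 2.40 in AVP and saline males, and 78.5% ± 4.26 and 76.8% ± 0.896 in AVP and saline females. These are shares between annotated transcripts that also differ elsewhere: Nrxn2 without the exon was counted on Nrxn2-204 and Nrxn2-203 only, and a share therefore also follows the other exons of those transcripts. The regulators of this exon among the STAR proteins, Khdrbs1, Khdrbs2 and Khdrbs3, included no gene past limma's test in either sex, also at an unadjusted p under 0.05.

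For Nrxn3, the share of its TPM that fell on coding transcripts was also examined. The rest fell on 2 transcripts annotated as targets of nonsense-mediated decay, 4 processed transcripts and 2 with retained introns. The coding share was 81.8%, 77.2%, 78.0% and 75.9% in AVP males 1, 2, 8 and 9 and 67.5%, 69.5%, 69.5% and 69.7% in saline males 4, 5, 12 and 13. In females it was 79.7%, 76.4% and 83.8% with AVP and 72.3%, 73.4%, 71.3% and 77.7% with saline. The male groups did not overlap, while saline female 15 lay above AVP female 10. How many of all genes have male coding shares without overlap is not given, so nothing is read from that. The share was picked out after its values were seen in these libraries, so the following p is a description and no test. In females the difference of 6.26 percentage points gave p = 0.0857 in an exact two-sided permutation test. The smallest p that 3 against 4 libraries allow there is 0.0571. Coding Nrxn3 stood at 9.64 ± 2.18 TPM in AVP males and 7.59 ± 0.624 TPM in saline males, and at 8.71 ± 4.19 and 8.72 ± 2.12 TPM in AVP and saline females.

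**Figure D2:**
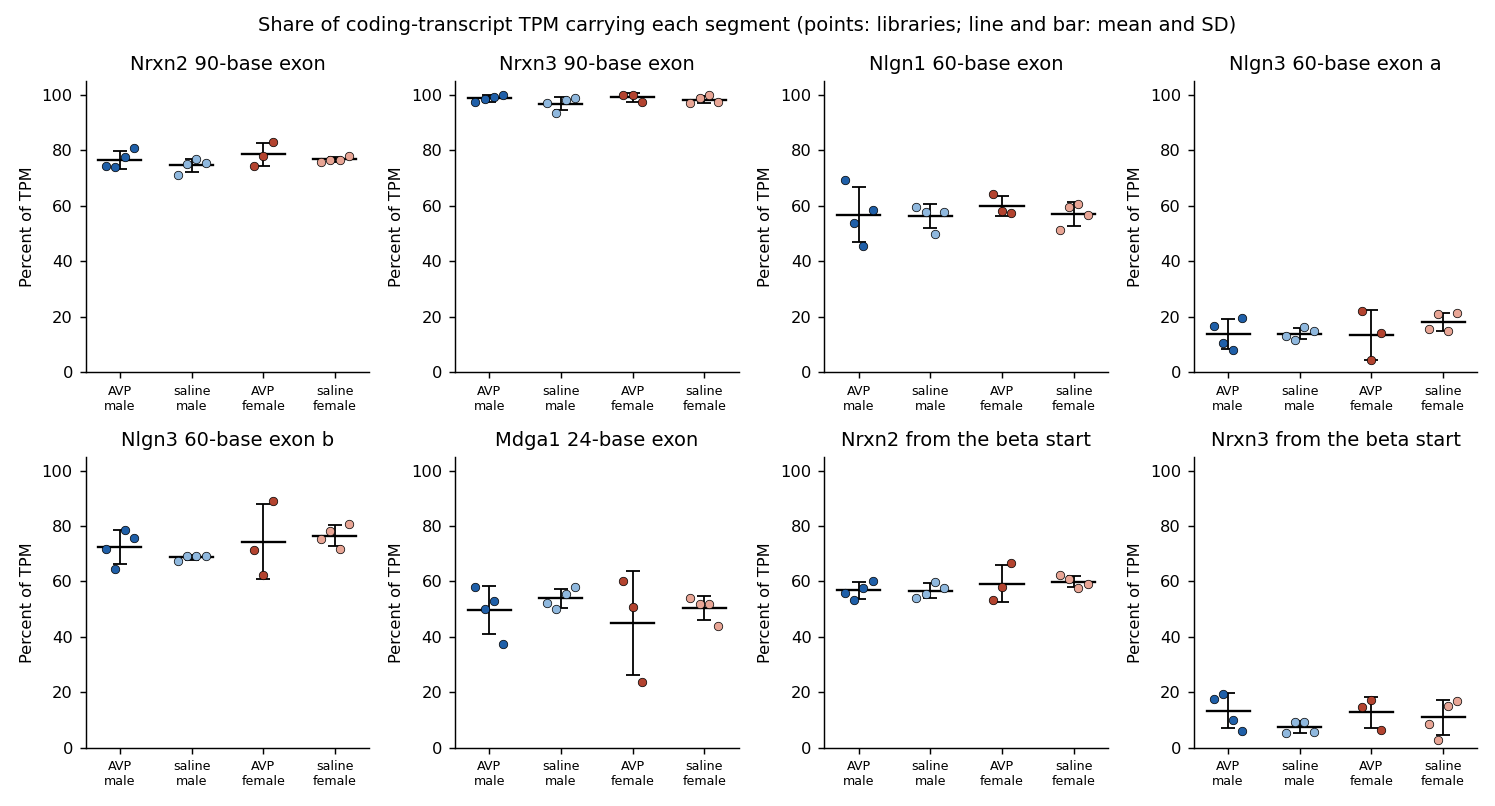
Percent of coding-transcript TPM that carries each alternative segment, or that starts at the beta start of the neurexins, by library (points) in the 4 groups, with mean (line) and SD (bar). The shares differ far more between genes, from 10.995% for the Nrxn3 beta start to 98.2% for the Nrxn3 90-base exon, than between AVP and saline.

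Of the neuroligins, Nlgn2, which organises inhibitory synapses, stood at 80.2, 86.9, 95.3 and 93.1 TPM in AVP males 1, 2, 8 and 9 and at 121, 87.6, 103 and 99.9 TPM in saline males 4, 5, 12 and 13. In females it stood at 82.1, 115 and 69.3 TPM with AVP, against 103, 93.8, 77.9 and 121 TPM with saline. The male groups touched only at saline male 5, and the female groups overlapped across their range.

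Nlgn3, found at excitatory and inhibitory synapses, stood at 19.2, 22.6, 19.7 and 19.7 TPM in AVP males, against 22.9, 22.3, 24.9 and 23.6 TPM in saline males, the libraries being in the same order. AVP male 2 was the only AVP male above the lowest saline male. In females Nlgn3 stood at 19.5, 24.9 and 13.8 TPM with AVP, against 21.8, 19.7, 19.8 and 21.3 TPM with saline, the AVP females lying on both sides of the saline females. Nlgn1, known from excitatory synapses, ranged from 18.7 to 23.5 TPM in AVP males, from 22.4 to 25.5 TPM in saline males, from 18.0 to 22.3 TPM in AVP females and from 19.9 to 28.2 TPM in saline females.

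The male differences of the neuroligins were -0.14 ± 0.09 for Nlgn1, -0.20 ± 0.10 for Nlgn2 and -0.20 ± 0.08 for Nlgn3, given without a test. The median over all 15271 genes fitted in males was -0.10, so relative to it they were -0.04, -0.10 and -0.10. After median-of-ratios scaling, which removes that shift, they were -0.04, -0.10 and -0.10. In females the differences were -0.11 ± 0.16, -0.17 ± 0.20 and -0.13 ± 0.19, beside a median of -0.05 over 15132 genes, and none passed limma's test (adjusted p = 0.999 for each). Without AVP female 11, those of Nlgn1 and Nlgn2 were -0.023 and -0.0073, and that of Nlgn3 was 0.093.

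Within the neuroligins, Nlgn2-201 held 57.2% of the gene's TPM and Nlgn2-202, which starts further upstream and has 8 exons in place of 7, 21.6%. Nlgn2-202 stood at 19.3, 17.7, 19.6 and 15.4 TPM in AVP males 1, 2, 8 and 9 and at 25.6, 20.4, 26.3 and 22.1 TPM in saline males 4, 5, 12 and 13. Those groups did not overlap. In females it was 20.03 ± 8.69 TPM with AVP and 20.6 ± 1.97 TPM with saline. The 51-base exon was carried by 94.7% ± 1.80 of the Nlgn2 TPM that spans it, and only Nlgn2-203 lacks it.

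In Nlgn1 the 60-base exon and the 27-base extension are carried by the same annotated transcripts, Nlgn1-201 and Nlgn1-205, so their shares are 1 measurement: 57.3% ± 5.72 over the 15 libraries. It was 56.8% ± 9.90 and 56.2% ± 4.25 in AVP and saline males, and 59.98% ± 3.69 and 57.04% ± 4.29 in AVP and saline females. In Nlgn3, exon b was carried by 72.9% ± 6.84 and exon a, which occurs only in Nlgn3-206, by 14.9% ± 5.03. Exon a was at 13.7% ± 5.42 and 13.9% ± 2.03 in AVP and saline males, and at 13.5% ± 9.01 and 18.1% ± 3.38 in AVP and saline females. The groups of each sex overlapped in these shares.

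Some neuroligin transcripts moved with the order of the library numbers more than with treatment. Nlgn3-202 averaged 3.42 ± 0.657 TPM in the 7 libraries numbered 1 to 8 and 5.77 ± 1.57 TPM in the 8 numbered 13 to 20, and Nlgn1-202 averaged 3.24 ± 1.32 and 5.44 ± 0.874 TPM. Other transcripts of the same genes went the other way between these runs. Nlgn1-203 averaged 5.24 ± 1.62 and 3.82 ± 1.17 TPM, and Nlgn3-201 averaged 7.88 ± 0.869 and 6.27 ± 2.57 TPM. These transcripts were picked out after their values were seen, and the share of all transcripts that moved so is not given. How reads were divided among the transcripts of a gene was not tested. Each run of numbers holds libraries of the 4 groups, and what else differed between the runs is not stated.

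Mdga1, the member that chose the set, stood at 25.7, 28.5, 25.8 and 26.2 TPM in AVP males 1, 2, 8 and 9 and at 39.9, 35.9, 41.2 and 33.6 TPM in saline males 4, 5, 12 and 13. Every AVP male lay below every saline male, with means of 26.5 ± 1.31 and 37.6 ± 3.53 TPM. It was the only 1 of the 7 members without overlap in males; in the male libraries 6.54% of all 15271 genes lay lower without overlap, and nothing is read from that count, since this difference chose the gene. Without AVP male 2, Nlgn1, Nlgn3 and Mdga2 also ceased to overlap (4 members), and without saline male 5, Nlgn2 and Nlgn3 did (3 members). Leaving out a library also ends the overlap of other genes. Without the library labelled saline male 12, 1141 of 15051 genes lay lower without overlap, against 998 of 15271 in the full fit. The share of all genes is not given for the fits without AVP male 2 or saline male 5, so nothing is read from their counts.

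The male difference of Mdga1 was -0.49 ± 0.08 on the log2 scale, a level 29.0% lower, and -0.39 relative to the median of all genes. It was -0.48 within the libraries numbered 1 to 8 and -0.51 within those numbered 13 to 20, with 2 AVP and 2 saline males in each. Without the library labelled saline male 12 it was -0.45. The direction in these subsets was fixed beforehand, since the male groups that chose the gene did not overlap. The full male difference ranked 879th from the lowest of 15271 genes, so that 5.76% of genes were as low or lower, and under median-of-ratios scaling it was -0.39.

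In females Mdga1 stood at 31.5, 64.1 and 25.1 TPM in AVP females 3, 10 and 11 and at 30.7, 34.6, 35.3 and 44.7 TPM in saline females 6, 7, 14 and 15. AVP female 10 was the highest and AVP female 11 the lowest of the 15 libraries, and the groups overlapped. The difference was 0.04 ± 0.29 (95% interval -0.62 to 0.71; limma adjusted p = 0.999), and the interval contains the male value. Without AVP female 10 it was -0.35, without AVP female 11 it was 0.32 and without saline female 6 it was -0.034, so its direction turned with single libraries. Whether the difference with AVP differed between the sexes was not tested, since the male libraries chose the gene.

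Mdga2, the paralog, stood at 7.87, 11.4, 9.24 and 9.51 TPM in AVP males, against 10.9, 10.2, 10.7 and 11.7 TPM in saline males. Only AVP male 2 lay among the saline males. It differed by -0.20 ± 0.12 in males and by -0.12 ± 0.26 in females, where it stood at 10.4, 10.5 and 5.30 TPM with AVP, against 7.63, 7.98, 10.9 and 10.3 TPM with saline (limma adjusted p = 0.999). The low value was again that of AVP female 11, without which the female difference was 0.19.

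**Figure D3:**
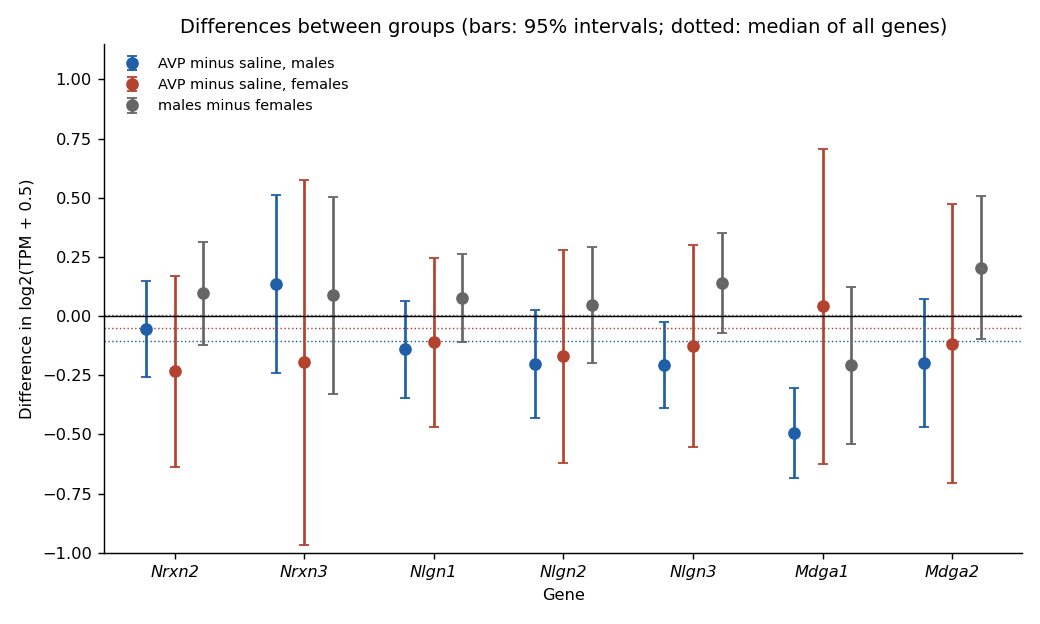
Difference in mean log2(TPM + 0.5) for AVP minus saline in males (blue) and females (red) and for males minus females (grey); bars are 95% intervals from limma and dotted lines are the medians over all genes. In males Mdga1 lies lowest at -0.49, while every female interval includes 0; the male and Mdga1 sex intervals show spread and are not tests.

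The Mdga1 transcripts examined were the 5 with a mean of at least 1 TPM. Mdga1-201, which lacks the 24-base exon, averaged 11.46 ± 1.88 TPM in AVP males and 14.6 ± 2.06 TPM in saline males, and Mdga1-208, which carries it, averaged 9.997 and 12.5 TPM; both pairs of groups overlapped. Mdga1-206, a short coding transcript that also carries the exon, stood at 1.52, 1.91, 1.67 and 0.442 TPM in AVP males 1, 2, 8 and 9 and at 6.69, 3.26, 4.73 and 3.59 TPM in saline males 4, 5, 12 and 13. The processed transcript Mdga1-207 averaged 0.846 ± 0.347 and 2.26 ± 0.575 TPM in the same groups. These short transcripts were the ones whose male groups did not overlap.

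Of the 11.1 TPM by which the Mdga1 mean was lower in AVP males, Mdga1-201 gave 28.3%, Mdga1-208 22.4%, Mdga1-206 28.6%, Mdga1-207 12.7% and the retained intron transcript Mdga1-203 8.08%. In saline males Mdga1-206 held 12.1% of the gene and Mdga1-201 38.8%, so the short transcript gave a larger part of the difference than of the level. Mdga1-206 lies within the span of the longer forms, so its TPM depend on how reads were divided among them.

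The 24-base exon was carried by 49.7% ± 8.75 of the coding Mdga1 TPM in AVP males and 54.0% ± 3.36 in saline males, and by 44.9% ± 18.8 in AVP females and 50.4% ± 4.34 in saline females. The lowest share, 23.9%, was that of AVP female 11, whose Mdga1-208 stood at 2.95 TPM against 7.77 to 18.7 TPM in the other libraries.

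**Figure D4:**
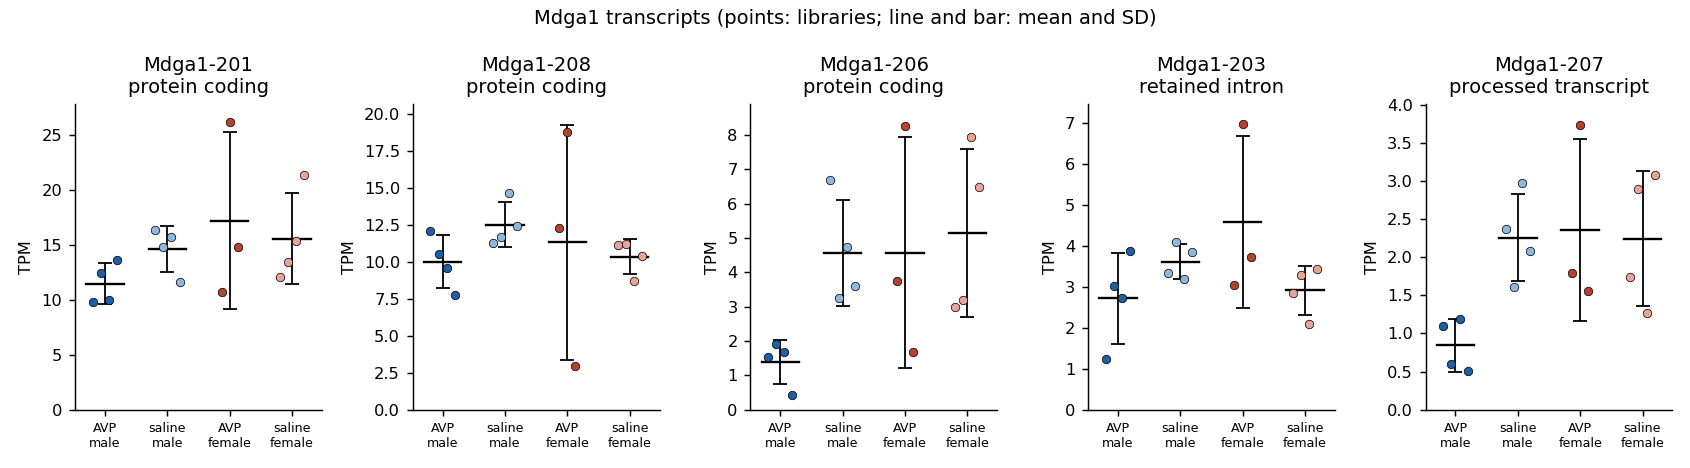
TPM of the 5 Mdga1 transcripts with a mean of at least 1 TPM, by library (points) in the 4 groups, with mean (line) and SD (bar) and an axis from 0 in each panel. AVP males lie below saline males without overlap for Mdga1-206 and Mdga1-207.

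Since MDGA proteins bind neuroligins, Mdga1 was also set against the summed neuroligins of the same library. The ratio was 0.213, 0.214, 0.193 and 0.195 in AVP males 1, 2, 8 and 9 and 0.239, 0.271, 0.274 and 0.225 in saline males 4, 5, 12 and 13. The male groups did not overlap in this ratio either, which uses Mdga1 and so is a description. In females it was 0.254, 0.398 and 0.248 with AVP and 0.212, 0.259, 0.281 and 0.273 with saline, and the groups overlapped.

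The markers of superficial cortical neurons summed to 718 to 790 TPM in AVP males and to 738 to 969 TPM in saline males over 8 of 8 genes, and to 645 to 771 TPM and 721 to 828.7 TPM in AVP and saline females. Saline males were thus higher on average in these markers as in Mdga1, with overlap, and their part in the Mdga1 difference was not tested. Deep layer markers also averaged lower in AVP males than in saline males (372 ± 32.0 against 412 ± 38.0 TPM). Radial glia markers averaged higher (2395 ± 330 against 2277 ± 353 TPM), and both overlapped. AVP female 10, with the highest Mdga1, had 711 TPM of the superficial markers. It had the highest sums for radial glia (3174 TPM), Cajal-Retzius cells (204 TPM) and deep layer neurons (464 TPM). The same held for intermediate progenitors (189 TPM), endothelium (62.2 TPM) and thalamus (15.8 TPM).

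**Figure D5:**
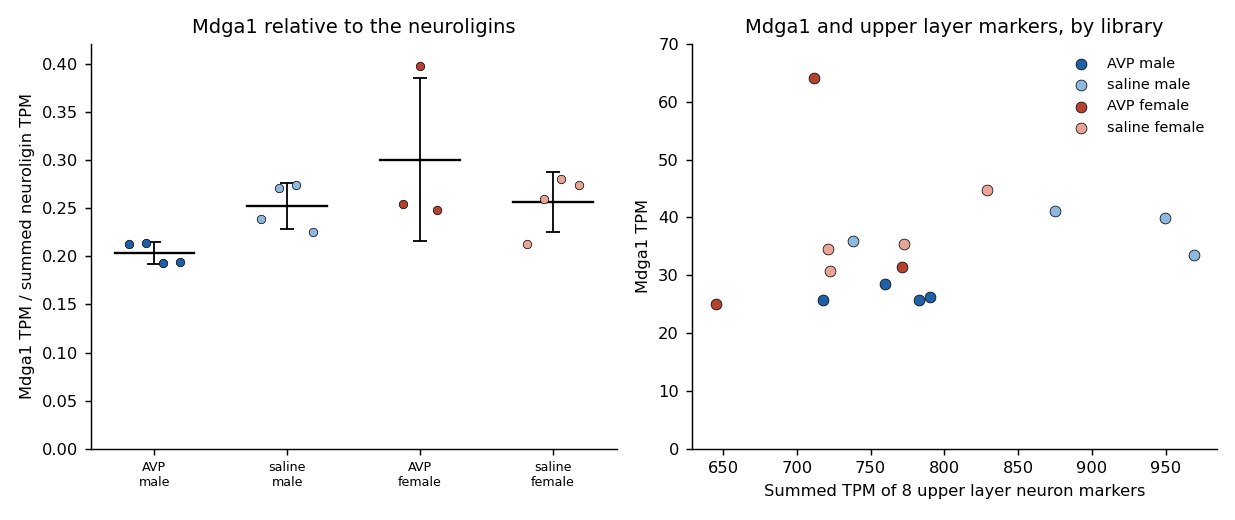
Left, Mdga1 TPM divided by the summed TPM of Nlgn1, Nlgn2 and Nlgn3, by library in the 4 groups with mean and SD, from 0. Right, Mdga1 TPM against the summed TPM of 8 superficial layer markers, 1 point per library; the horizontal axis does not start at 0. The AVP males lie at ratios of 0.193 to 0.214, below the saline males at 0.225 to 0.274.

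Across the set, 6 of 7 members had a difference below 0 in males, beside 73.6% of all genes, and 6 of 7 in females, beside 63.1% of all genes. The male count was 5 under median-of-ratios scaling, and the female count was 3 without AVP female 11. No member lay lower without overlap in females, beside 2.77% of genes. Without AVP female 10, Nlgn3 did, but so did 2476 of the 15308 genes of that fit. In females 0 of 7 members passed limma's adjusted p, 0 of 7 had an unadjusted p under 0.05, and 0% of the 15132 genes passed the adjusted p. Among the member transcripts that passed the filter on low values, 3 of 31 lay lower without overlap in males (Mdga1-206, Mdga1-207 and Nlgn2-202), beside 5.87% of all transcripts. Nothing is read from that count, since it uses the male libraries that chose Mdga1. In females it was 0 of 29, beside 2.44%. Nrxn2-212, a retained intron transcript too low to be tested in females, was also lower there without overlap. In females limma called 0 of 28 member transcripts with a mean of at least 1 TPM, beside 0% of 37806 (1156 at an unadjusted p under 0.05), and 0 of 23 shares of a transcript in its gene, beside 0% of 32534 (1052 at that threshold); none of the member transcripts or shares had an unadjusted p under 0.05. The smallest of those was that of Nrxn2-202, -0.34 ± 0.15 (unadjusted p = 0.0563, limma adjusted p = 0.999993).

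The sexes were compared as the mean of the male groups minus the mean of the female groups. Mdga1 was at -0.21 ± 0.16 and Mdga2 at 0.20 ± 0.14, while the others lay between 0.05 (Nlgn2) and 0.14 (Nlgn3, which is X-linked). The value of Mdga1 is a description, since it holds the AVP male libraries in which the gene was chosen as lower. Of the others, 0 of 6 were called by limma or had an unadjusted p under 0.05, with adjusted p = 0.999985 for each and 0% of the 15078 genes called (117 lower and 123 higher at an unadjusted p under 0.05). The library labelled saline male 12 entered this fit as a male, and the fit did not call even Xist. The lack of calls among the members is therefore not read as a lack of difference between the sexes. Without that library 2 genes were called lower and 5 higher in males, while Mdga1 was at -0.23 and Mdga2 at 0.21, the latter not called. Nlgn3 ranged from 0.031 to 0.24 when leaving out 1 library and was called in none of those fits. The sizes moved with single AVP females: Mdga1 was at -0.012 without AVP female 10 and at -0.35 without AVP female 11. Without AVP female 11, Mdga2 was at 0.052 and Nlgn3 at 0.031.

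Other genes of trans-synaptic adhesion were followed as 7 lists of 90 genes, 87 of which were tested in each sex. None passed limma's adjusted p in either sex, beside 0.00655% of all genes in males (1 of 15271). In males 17 were lower at an unadjusted p under 0.05, beside 12.4% of all genes, and 1 was higher, beside 1.11%. The split depended on scaling: it was 6 lower and 4 higher after quantile normalization and 7 lower and 5 higher after median-of-ratios scaling. It fell to 5 lower without AVP male 1, to 7 without saline male 4 and to 5 without the library labelled saline male 12. Without that last library the count over all genes also fell, to 1069 of 15051, against 1888 of 15271. The median difference of the 87 genes was -0.16 in males, beside -0.10 for all genes, and -0.16 in females, beside -0.05. In males it was -0.044 after quantile normalization and -0.061 after median-of-ratios scaling. In females it was -0.31 without AVP female 10 and 0.027 without AVP female 11, so its direction turned with that library.

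Among these 87 listed genes, which were picked for adhesion, the smallest unadjusted male p-values were those of Ptprs and Adgrl1. Ptprs, a LAR-type presynaptic receptor, stood at 239 ± 44.4 TPM in AVP males and 345 ± 20.1 TPM in saline males (-0.54 ± 0.12; unadjusted p = 0.00174, limma adjusted p = 0.304). Adgrl1, a latrophilin that binds teneurins, stood at 87.4 ± 7.76 and 108 ± 5.22 TPM (-0.31 ± 0.08; unadjusted p = 0.00285, limma adjusted p = 0.304). The others were Ptprd (-0.37), the neurotrophin receptor Ntrk3 (-0.31) and the scaffold Dlgap4 (-0.25), with limma adjusted p-values of 0.304 to 0.310. C1ql3, a secreted ligand, was the gene higher at the unadjusted threshold, at 3.33 ± 1.41 against 1.99 ± 0.281 TPM (0.57 ± 0.24). By list, the counts lower at that threshold in males were 4 of 16 LAR-type receptors and ligands, 3 of 16 leucine-rich and other neurexin ligands, 2 of 11 latrophilins, teneurins and FLRTs, 2 of 8 SynCAMs and netrin-G ligands, 3 of 17 postsynaptic scaffolds and 3 of 16 presynaptic scaffolds.

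In females 6 pathway genes were lower at an unadjusted p under 0.05, beside 2.17% of all genes, and 1 was higher, beside 2.34%. Lrrtm1, a leucine-rich neurexin ligand, stood at 29.1 ± 3.61 TPM with AVP and 37.5 ± 4.22 TPM with saline (-0.36 ± 0.13; unadjusted p = 0.0234, limma adjusted p = 0.999). Lrrc4c (-0.38) and Lrrc4 (-0.34), which encode ligands of netrin-G proteins, were also lower at that threshold, as was the SynCAM Cadm4 (-0.23). Flrt3, a latrophilin ligand, was the gene that was higher, at 24.7 ± 3.58 against 18.3 ± 2.68 TPM (0.42 ± 0.15). The count of lower genes was 20 without AVP female 10, and 0 without AVP female 11 or saline female 6, 2 without saline female 7 and 1 without saline female 14. The count over all genes moved too. It was 1314 of 15308 without AVP female 10 and 155 of 15489 without AVP female 11, against 329 of 15132 in the full fit.

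The genes whose levels ran most like each member were found from the deviations of log2(TPM + 0.5) from the group means over the 15 libraries, among 11597 genes with a mean of at least 5 TPM; the points share their library and its cell composition, and r is given as a description. The spread within groups was larger in females than in males for each member. For Mdga1 its SD on the log2 scale was 0.47 in females and 0.11 in males. Its r values therefore rest mainly on AVP females 10 and 11, its highest and lowest libraries. The genes most like Mdga1 were Usp54 (r = 0.949), the potassium channel gene Kcnd3 (0.946) and Hmbox1 (0.942). For Mdga2 they were Spen (0.955), Zfp715 (0.951) and Cdk12 (0.951), with Tenm1 (0.937) among pathway genes. Nrxn2 ran with the kinesin light chain gene Klc1 (0.968), Mapk8ip2 (0.964) and Cmip (0.958). Nrxn3 ran with Gm9864 (0.964), Bsn (0.955), which encodes a presynaptic scaffold, and Synpr (0.954).

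Among the neuroligins, Nlgn2 ran with Mast1 (0.968), Aatk (0.960) and Arhgap33 (0.953), and Nlgn3 with Pgbd5 (0.962), Hip1 (0.960) and Kif5a (0.955). Nlgn1 ran with Itpr1 (0.912), Gart (0.883) and Fam49a (0.856). Within the set, Nlgn3 ran close to Nrxn2 (0.868), Nrxn3 (0.857) and Mdga1 (0.823), while Nlgn1 ran apart from Nlgn2 (-0.181) and from Mdga1 (0.186). The pair of Nlgn1 and Nlgn2 was the least alike of the 21 pairs.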

How the data were processed

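The deposited table held TPM per transcript for 15 libraries. The authors trimmed reads with Trim Galore 0.4.1 and quantified them with Kallisto 0.43.1 against GENCODE M16 (GRCm38), using stranded libraries and bias correction, and deposited the TPM. TPM do not carry read depth, so depth per library is unknown and no counting interval was given. For gene levels, TPM were added over the transcripts that GENCODE M21, also on GRCm38, assigns to each gene, and 404 transcripts had no gene there. Members and gene lists were chosen with earlier results of these data known.

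Groups came from the labels. Genes with at least 1 TPM in 50% of the libraries of a fit were tested on log2(TPM + 0.5) with limma 3.58.1 (R 4.3.3, mean-variance trend) within each sex, and over all 15 libraries for the sexes, two-sided, with Benjamini-Hochberg adjustment over all genes and a threshold of 0.05. Fold changes on this scale understate those of low genes. Transcript shares (mean 5% to 95%) were tested as log2 ratios without trend. Inclusion of a segment was the TPM of coding transcripts with it over that of transcripts with or without it. The fit was checked on data with known differences. Named pathway genes were, per sex, up to 5 with the smallest unadjusted p under 0.05, beside C1ql3, named after its value was seen; per member, the 3 genes with the highest Pearson r. Alternatives were pseudocounts of 0.1 and 1, no filter, a filter of 5 TPM in every library, quantile normalization, median-of-ratios scaling, no trend, library run as a covariate, 1 fit of 15 libraries (already the fit for the sexes), coding transcripts only, and leaving out each library. Some items are not reported here.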

Additional observations from a re-analysis of the deposited data

Results flagged for a closer look

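In the saline males, Xist stood at 266 TPM in the library labelled saline male 12, against at most 1.13 TPM in the other 3, and Ddx3y, Kdm5d and Eif2s3y stood at 0.110, 0.116 and 0.0411 TPM there, far below the others. Among the members, Nlgn1 was far above the rest of its group in saline female 14 (28.2 TPM), and Nlgn3 in AVP male 2 (22.6 TPM). Of the transcripts, Nlgn1-205 was low in saline male 4 (1.13 TPM), Nrxn2-202 high in saline female 6 (63.3 TPM) and Nrxn2-211 high in saline female 14 (13.4 TPM). The share of Nlgn3 carrying exon b was low in saline male 4 (67.3%), where the other saline males lay within a narrow range. Over 149 groups of 4 libraries examined, 10 stood out in this way, and chance alone gives about 1 in 20. The sex-linked genes were examined in the saline males only. Their flags come from the library already known to go against its label, so the 10 cannot be set against that share.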

How the results depend on the processing

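The direction of the Mdga1 difference in males was the same under every alternative run, with quantile normalization moving it furthest, to -0.36. Leaving out 1 library gave -0.55 (without saline male 13) to -0.45 (without saline male 12). These libraries chose the gene and every AVP male lay below every saline male. Leaving out 1 library could therefore not turn the direction, and its stability is no test. In females the Mdga1 direction turned with the library run as a covariate (-0.010), with coding transcripts only (-0.023), without saline female 6 (-0.034) and without AVP female 10 (-0.35), the range being -0.35 to 0.32. The female differences of Nrxn3 (-0.56 to 0.21), Nlgn1 (-0.18 to 0.0058), Nlgn3 (-0.32 to 0.093) and Mdga2 (-0.27 to 0.19) also changed sign in such fits. Between the sexes this held for Nrxn2 (-0.015 to 0.18), Nrxn3 (-0.11 to 0.27) and Nlgn2 (-0.035 to 0.15; -0.0078 without saline female 14). No member in females and no pathway gene in either sex gained an adjusted call under the alternatives run. The members lower without overlap numbered 2 in males with coding transcripts only, beside 691 of 12869 genes. They numbered 1 to 4 in males when leaving out 1 library, and 0 to 1 in females. In females without AVP female 10, 1 member was lower without overlap, beside 2476 of 15308 genes. Male pathway genes lower at an unadjusted p under 0.05 numbered 6 (quantile normalization), 7 (median-of-ratios scaling), 10 (1 fit of 15 libraries) and 5 to 23 when leaving out 1 library, against 17. Those higher numbered 0 (no filter, the 5 TPM filter, 1 fit), 4 (quantile normalization) and 5 (median-of-ratios scaling), and 0 to 1 when leaving out 1 library, against 1. In females the lower count was 2 with the run as a covariate and 0 to 20 when leaving out 1 library, against 6, and the higher count 0 to 2, against 1. The count of 20, without AVP female 10, stood beside 1314 of 15308 genes lower at that threshold. In all genes, those lower without overlap in males numbered 998 and, under median-of-ratios scaling, 440, and those lower and higher at an unadjusted p under 0.05 numbered 1888 and 169, 766 and 762 after quantile normalization and 869 and 894 after median-of-ratios scaling. The cause was not tested. With 3 or 4 libraries a group, the female intervals of the members are wide, and TPM give no depth. No paired analysis was possible because the groups share no replicate numbers.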
